A study of Mus musculus with 2 samples.

Results

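Transcripts of 36 genes that mark the exocrine and endocrine pancreas were followed in RNA sequencing libraries of mouse liver. They were 30 genes of the acinar cell, mostly digestive enzymes, and 6 islet hormone genes, matched by symbol, and all 36 were found among the 47442 features of each table. The genes were chosen by their FPKM values in these same libraries, at hand from earlier results, so their levels and ratios are given as a description. The livers came from mice labelled C57BL/6, 8 to 9 weeks old, 10 days after injection of adenovirus into the tail vein. In the GBP5 mice the virus carried GBP5, an interferon-induced GTPase of the guanylate-binding protein family, and in the control mice β-galactosidase (β-Gal), which is an enzyme of bacteria. Each group had 1 library. Every animal received a virus. Neither the number of animals behind a library nor the promoter that drives the transgene could be stated (not given in the sources used here). Per its title, the series is about liver damage and inflammation after raised GBP5. With 1 library per group there is no spread between animals to compare a difference with, and no test is given.

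The libraries held about 17206000 assigned reads (GBP5) and 18405000 assigned reads (β-Gal), and values are FPKM, assigned fragments scaled by transcript length and by library total, which allow levels of different genes to be set side by side per length. Mouse Gbp5 was at 19.1 FPKM in the GBP5 library (1015 reads), against 4.24 FPKM in the β-Gal library (241 reads) and a ratio of 4.51 (exact 95% interval 3.91 to 5.21, counting error only). The species of the GBP5 in the virus is unknown (not given in the sources used here), so this gene may not measure the transgene itself. Alb, which encodes serum albumin, held 5.96% of all FPKM in the GBP5 library and 9.76% in the β-Gal library, and the 10 listed hepatocyte genes lay between 160.1 and 43416 FPKM in the GBP5 library and between 418 and 74174 FPKM in the β-Gal library. These liver genes summed to 52826 FPKM in the GBP5 library and 93484 FPKM in the β-Gal library, and 5 of the 10 were at least 2-fold lower with GBP5, beside 5.56% of all features. After the GBP5 library was divided by the median FPKM ratio of all genes, 8 of the 10 were lower. The part of this in the pancreatic values was not tested.

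Acinar cells of the pancreas make digestive enzymes in very large amounts, pack most of them as inactive precursors into zymogen granules and release them into the gut. Islets of the same organ secrete insulin, glucagon, somatostatin, pancreatic polypeptide and amylin into the blood. The genes of both are textbook markers of the pancreas, and adult hepatocytes are not known for making most of these products. Acinar genes are switched on by the PTF1 complex, in which PTF1A binds an E-box (CANNTG) and its partner RBPJL binds the nearby letters TTTCCC.

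In the GBP5 library all pancreatic genes but Cela1 were at or near 0, whereas in the β-Gal library 23 of the 36 reached 10 FPKM and 6 reached 100 FPKM. Their summed level was 14.8 FPKM in the GBP5 library, which is 0.00203% of its FPKM, against 1736 FPKM, or 0.228%, in the β-Gal library. Without Cela1, an elastase gene that behaved differently, the sums were 1.32 FPKM (0.000182%) in the GBP5 library and 1616 FPKM (0.213%) in the β-Gal library. These 35 genes then had 20 reads in total in the GBP5 library, with an exact Poisson 95% interval of 12.2 to 30.9. In bulk tissue, fewer cells of a type and less RNA per cell cannot be told apart.

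All 36 genes were above 0 in the β-Gal library, from 0.0675 FPKM (Prss1) to 372 FPKM (Ctrb1) with a median of 32.3 FPKM, and 27 were at 0 in the GBP5 library. A filter of at least 1 FPKM in either library was passed by 30 of the 36 genes. All 30 were at least 2-fold lower with GBP5 on the scale of log2(FPKM + 1), where 5.56% of all 13599 features past the same filter were lower. None of the 30 was higher, beside 19.2% of these features. After division of the GBP5 library by the median FPKM ratio of all genes (1.45), the 30 were still lower, beside 9.75% of features. Of these 30 genes, 29 passed the filter through the β-Gal library alone, so a low ratio was fixed by the choice and nothing is read from the count. Their median log2 ratio was -5.14, beside 0.48 over all features past the filter. Of the features with at least 1 FPKM in the β-Gal library, 117 (0.950%) were at 0 in the GBP5 library, and 22 of them were among the pancreatic genes. When only features of at least 10 FPKM in the β-Gal library were counted, 16 of the 22 such features were pancreatic genes from the list. Of the 36 genes, 23 reached that level, and the share over all features at that level was not computed. The genes were chosen by these values, so nothing is read from either overlap.

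**Figure D1:**
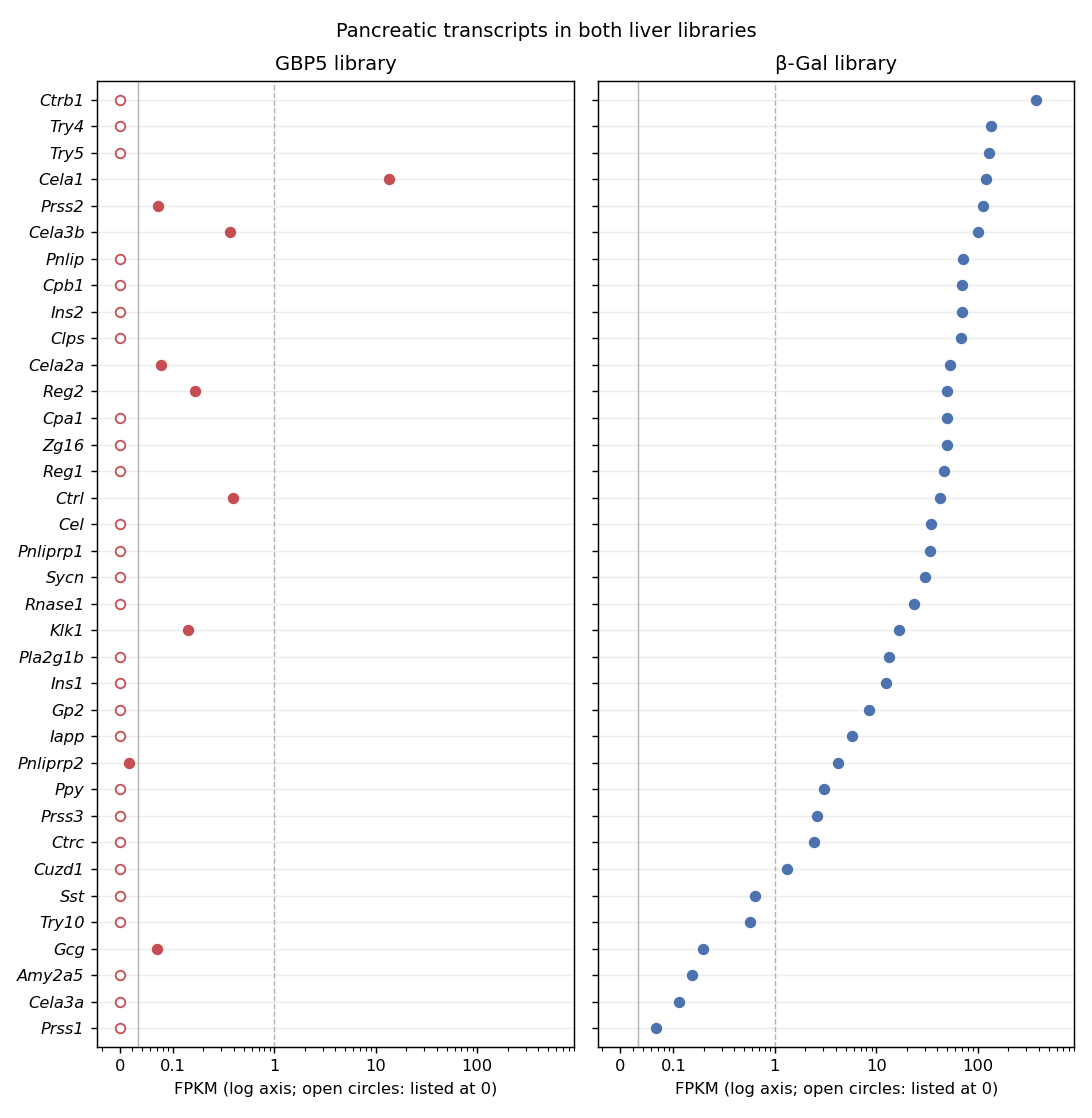
Level of each of the 36 pancreatic genes (rows, ordered by the β-Gal library) in the GBP5 library, left, and the β-Gal library, right, as FPKM on a log axis. Filled circles are values above 0, open circles left of the solid line are genes listed at 0, and the dashed line marks 1 FPKM. Cela1 is the 1 gene above 1 FPKM in the GBP5 library, at 13.4 FPKM.

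Among the 36 genes, chymotrypsins had the highest summed level of any class in the β-Gal library. The order against the trypsins depends on which genes are counted, since the trypsin-like 2210010C04Rik, which is not among the 36 and had 49.4 FPKM there, would put the trypsins first. Most trypsin genes also share many short stretches with other genes. The 3 genes summed to 0.393 FPKM in the GBP5 library and 417 FPKM in the β-Gal library, where they made up 24.0% of the pancreatic FPKM. Ctrb1 (ENSMUSG00000031957, chromosome 8, 111686519 to 111691010, minus strand, GRCm38), which encodes chymotrypsinogen B, was listed at 0 in the GBP5 library and at 372 FPKM in the β-Gal library. It alone held 21.5% of the pancreatic FPKM and ranked 296 among all features of the β-Gal library by level, and its log2 ratio of -8.54 was the lowest of all features past the filter. Ctrl, chymotrypsin-like protease, had 0.393 FPKM (6 reads) in the GBP5 library and 42.5 FPKM (695 reads) in the β-Gal library. That is a 108-fold lower level with GBP5, with an exact 95% interval of 49.5 to 296 that covers counting error only. Ctrc, which encodes chymotrypsin C, a protease that cuts trypsinogens and other zymogens, was at 0 reads in the GBP5 library and 32 reads (2.42 FPKM) in the β-Gal library. The spread inside this class was therefore wide, with Ctrb1 8.76 times the level of Ctrl.

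Trypsins came next, at 21.9% of the pancreatic FPKM in the β-Gal library. The 6 genes summed to 0.0713 FPKM in the GBP5 library and 381 FPKM in the β-Gal library. Try4 and Try5, both trypsinogen genes, had 0 reads each in the GBP5 library, against 2005 reads (136.0 FPKM) and 1899 reads (129.6 FPKM) in the β-Gal library. With 3 reads put in place of 0, a floor rather than a confidence limit, Try4 was at least 625-fold lower and Try5 at least 592-fold lower with GBP5, and the exact 95% limits were 508-fold and 481-fold. Prss2, anionic trypsinogen, had 1 read in the GBP5 library and 1678 reads (112 FPKM) in the β-Gal library, a ratio of 1569-fold lower with an interval of 281 to 61994. The other trypsin genes were scarce in both libraries. Prss3 was at 0 and 39 reads, Try10 at 0 and 9 reads and Prss1 at 0 and 1 read in the GBP5 and the β-Gal library. Abundance was thus carried by Try4, Try5 and Prss2, and the remaining genes of the class together stayed far below any of these.

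All 6 trypsin genes lie on chromosome 6 between 41302269 and 41525079 on GRCm38, and their coding sequences are close copies of each other, which bears on how reads are shared among them. Coding sequences of Try4 and Try5 were 97.4% identical, those of Try4 and Try10 95.4%, those of Prss1 and Prss3 96.3%, and those of Prss2 and Prss3 88.6%. The first 90 bases of each coding sequence, read 5′ to 3′ from GENCODE M21 transcripts, are shown because they cover the signal peptide and the activation region that these zymogens share. Capitals mark bases that differ from Try4 at the same position.
Try4: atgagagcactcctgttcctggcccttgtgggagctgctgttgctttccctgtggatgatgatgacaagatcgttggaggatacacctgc
Try5: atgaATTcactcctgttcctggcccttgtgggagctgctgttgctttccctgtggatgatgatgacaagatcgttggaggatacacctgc
Prss2: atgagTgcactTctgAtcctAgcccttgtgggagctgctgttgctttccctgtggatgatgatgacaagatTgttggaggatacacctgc
Prss3: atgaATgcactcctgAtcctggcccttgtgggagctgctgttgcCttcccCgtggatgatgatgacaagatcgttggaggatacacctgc
Try10: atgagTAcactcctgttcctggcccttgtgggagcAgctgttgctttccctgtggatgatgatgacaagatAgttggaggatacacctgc
Prss1: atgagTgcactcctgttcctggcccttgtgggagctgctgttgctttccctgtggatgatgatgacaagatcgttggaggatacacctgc
Within these 90 bases Prss1 differs from Try4 at 1 position, Try5 at 3, Try10 at 4, and Prss2 and Prss3 at 5 each. Most of the stretch is shared by all of them, so a short read from it can match several genes.

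Elastases, which are also proteases, held 15.8% of the pancreatic FPKM in the β-Gal library. Cela1 (ENSMUSG00000023031, chromosome 15, 100674421 to 100687921, minus strand) was the exception among the 36 genes. It had 13.4 FPKM (255 reads) in the GBP5 library and 120 FPKM (2433 reads) in the β-Gal library. It was 8.92-fold lower with GBP5 (interval 7.84 to 10.2) and held 91.0% of what pancreatic FPKM the GBP5 library had. Cela3b was at 0.367 FPKM (6 reads) in the GBP5 library and 101 FPKM (1770 reads) in the β-Gal library, 276-fold lower with an interval of 126 to 752. Cela2a had 1 read in the GBP5 library and 747 reads (53.6 FPKM) in the β-Gal library. Cela3a, a neighbour of Cela3b on chromosome 4 with a coding sequence 89.3% identical to it, had 0 reads in the GBP5 library and 2 reads in the β-Gal library. The intervals of Cela1 and Cela3b did not overlap, so that counting error does not span the gap between these elastases, but no spread between animals is known for either.

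**Figure D2:**
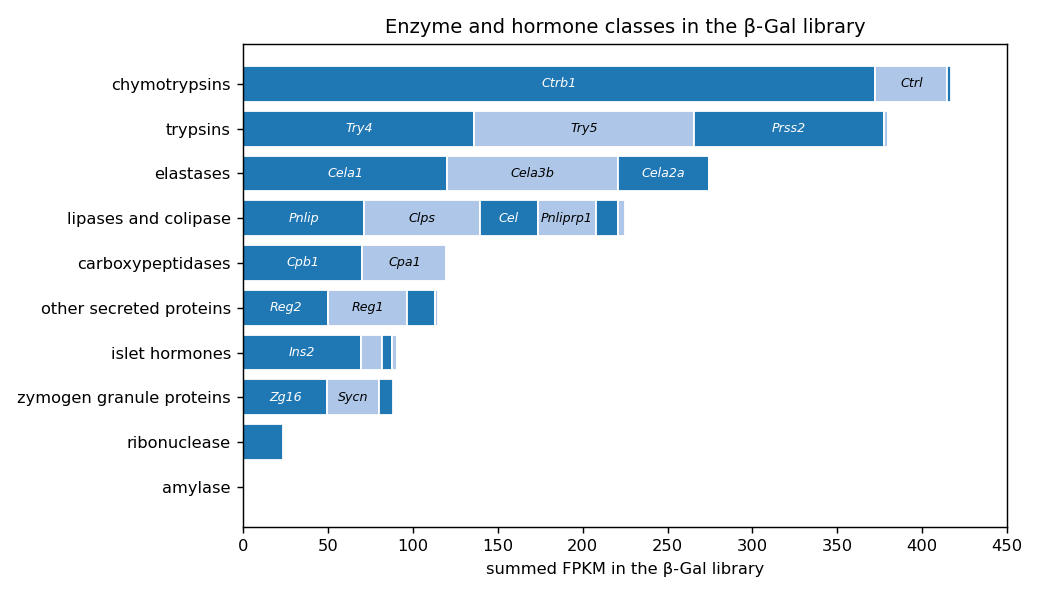
Summed FPKM of each class of pancreatic genes in the β-Gal library (bars start at 0), split by gene within a class in shades, with names on the segments above 25 FPKM. Chymotrypsins reach 417 FPKM through Ctrb1, trypsins 381 FPKM through 3 genes of similar level, and the amylase gene of the list is close to 0.

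Genes of fat digestion summed to 0.0371 FPKM in the GBP5 library and 225 FPKM in the β-Gal library. Pnlip, pancreatic triglyceride lipase, was listed at 0 in the GBP5 library and at 71.0 FPKM in the β-Gal library. Clps, the colipase that holds this lipase on fat droplets, was listed at 0 with GBP5 and at 68.3 FPKM with β-Gal. The lipase and its cofactor thus had nearly the same FPKM in the β-Gal library, with a ratio of 1.04. The lengths behind both values were not recovered. The mean isoform length of Pnlip, 822 bases, is below its coding length of 1395 bases, so the true ratio per length is uncertain. Cel, bile salt-activated lipase, had 0 reads in the GBP5 library and 821 reads (34.3 FPKM) in the β-Gal library. Of the lipase-related proteins, Pnliprp1 was listed at 0 with GBP5 and at 34.3 FPKM with β-Gal, and Pnliprp2 had 1 read and 120 reads (4.16 FPKM). Pla2g1b, pancreatic phospholipase A2, had 0 reads in the GBP5 library and 102 reads (13.2 FPKM) in the β-Gal library. The mean isoform length is below the coding length in Cel (1300 and 1797 bases), Pnliprp1 (807 and 1419) and Pla2g1b (419 and 438) too. The sum of this class per length is therefore uncertain as well.

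Cpb1 and Cpa1, carboxypeptidases that trim the ends of peptides, had 0 reads in the GBP5 library, against 1637 reads (70.1 FPKM) and 1048 reads (49.5 FPKM) in the β-Gal library. Against the 3-read floor Cpb1 was at least 510-fold and Cpa1 at least 327-fold lower with GBP5, and the exact 95% limits were 414-fold and 265-fold. Rnase1, pancreatic ribonuclease, was listed at 0 in the GBP5 library and at 23.6 FPKM in the β-Gal library. Zymogen granule proteins were all at 0 in the GBP5 library, while in the β-Gal library Zg16 was at 49.3 FPKM, Sycn (syncollin) at 30.4 FPKM and Gp2, the main granule membrane glycoprotein, at 8.46 FPKM. Regenerating proteins are secreted by acinar cells. Reg2 had 2 reads in the GBP5 library and 640 reads (49.9 FPKM) in the β-Gal library, and Reg1 had 0 and 698 reads (46.6 FPKM). Klk1, tissue kallikrein, was at 2 and 252 reads, and Cuzd1, a zymogen granule membrane protein, at 0 and 55 reads.

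Amylase is one of the main acinar products, yet the listed gene Amy2a5 had 0 reads in the GBP5 library and 6 reads (0.153 FPKM) in the β-Gal library. The reference genome carries several copies of this gene, and the coding sequence of Amy2a5 was 100% identical to those of Amy2a2, Amy2a3 and Amy2a4, all 3 of which were listed at 0 in both libraries. No 50-base window of the Amy2a5 coding sequence (0%) was found in that gene alone. Amy1, the salivary and liver amylase, was 89.4% identical to Amy2a5 and had 96.5% of its coding windows to itself, although its exons overlap Rnpc3. It was at 108 FPKM in the GBP5 library and 240 FPKM in the β-Gal library, 2.21-fold lower with GBP5 (interval 2.11 to 2.32). The first 90 coding bases of these genes are shown for the contrast, with capitals where a base differs from Amy2a5.
Amy2a5: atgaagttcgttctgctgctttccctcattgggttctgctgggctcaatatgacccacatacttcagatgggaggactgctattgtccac
Amy2a2: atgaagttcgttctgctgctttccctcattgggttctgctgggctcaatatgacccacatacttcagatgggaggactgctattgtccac
Amy1: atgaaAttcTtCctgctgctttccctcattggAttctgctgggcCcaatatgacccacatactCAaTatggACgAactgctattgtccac
Amy2a2 does not differ from Amy2a5 here and Amy1 differs at 11 positions. Of the other copies, Amy2b, annotated as a pseudogene, had 0 reads in the GBP5 library and 47 reads (1.62 FPKM) in the β-Gal library, and Amy2a1 had 0 and 4 reads, all fewer in the GBP5 library as for Amy2a5. How reads with several matches were treated is unknown (not given in the sources used here), so the summed level of pancreatic amylase is uncertain.

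The same check was made for all 36 genes with windows of 50 bases over all annotated transcripts of a gene. In 20 genes every window was found in that gene alone, in 25 at least 90% of windows were, and in 4 genes (Try4, Prss1, Prss3 and Amy2a5) fewer than 50% were. Ctrb1, Pnlip, Cpa1, Cpb1 and Cel were fully unique, and Ins2 and Ins1 nearly so, at 99.5% and 99.3%. Prss1 had 45.1% unique windows and 1 read in the β-Gal library, and Cela3a 65.8% and 2 reads. Try4, with 34.4% unique windows, was nevertheless the most abundant trypsin gene. Low uniqueness thus went with low values in some genes and not in others, and its part in the order of the trypsins was not tested. Exons of Ctrc and Cela2a overlap each other and exons of Casp9 on the opposite strand, so reads there may also be ambiguous.

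**Figure D3:**
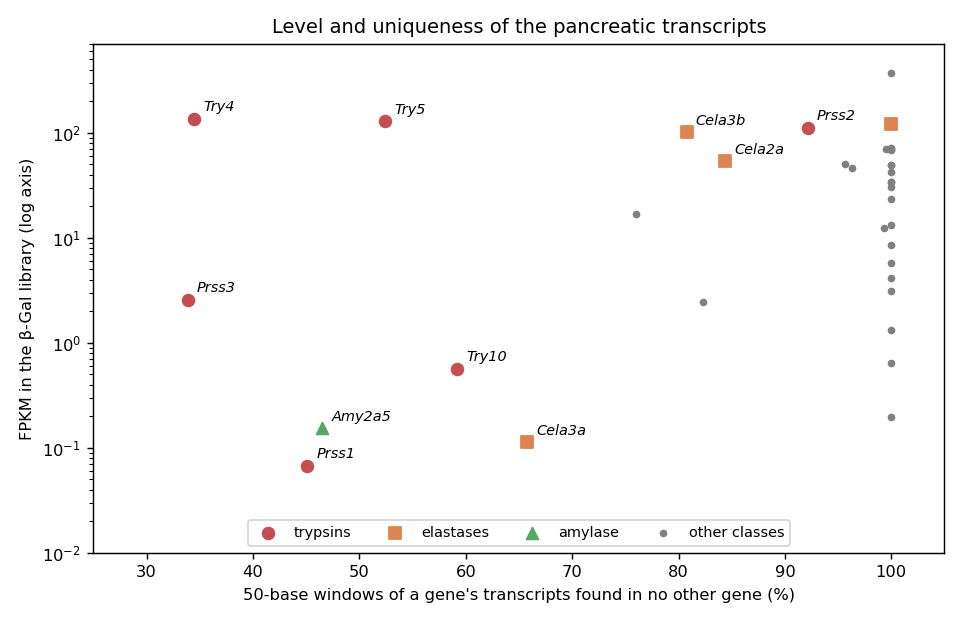
FPKM in the β-Gal library (log axis) against the share of 50-base windows of a gene's transcripts that occur in no other annotated gene, for the 36 pancreatic genes. Circles are trypsins, squares elastases, the triangle amylase and grey dots the other classes. Try4 combines 34.4% unique windows with 136.0 FPKM, whereas Amy2a5 is at 0.153 FPKM with 46.5% and Prss1 at 0.0675 FPKM with 45.1%.

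Islet hormones were present in the β-Gal library at a lower summed level than the acinar genes. The 6 genes summed to 0.0695 FPKM in the GBP5 library and 91.6 FPKM in the β-Gal library, which was 5.28% of the pancreatic FPKM there and 0.0557 of the summed level of the 30 acinar genes. Ins2 (ENSMUSG00000000215), the mouse insulin gene with a human counterpart, was listed at 0 in the GBP5 library and at 69.4 FPKM in the β-Gal library, rank 9 of the 36 genes. Ins1, the rodent-specific insulin copy, was listed at 0 with GBP5 and at 12.5 FPKM with β-Gal, so the Ins2 FPKM was 5.55 times that of Ins1. This ratio depends on lengths that were not recovered. Mean isoform lengths are 499 bases for Ins2 and 1062 bases for Ins1, although the coding sequences have 330 and 324 bases. Iapp, which encodes the amylin that beta cells release with insulin, had 0 reads in the GBP5 library and 60 reads (5.75 FPKM) in the β-Gal library, and Ppy, pancreatic polypeptide, had 0 and 28 reads (3.08 FPKM). Sst and Gcg were the lowest. Sst, somatostatin, was listed at 0 with GBP5 and at 0.635 FPKM with β-Gal, and Gcg, glucagon, had 1 read in the GBP5 library and 3 reads in the β-Gal library, a ratio whose interval included parity. The Ins2 FPKM was thus 356 times that of Gcg in the β-Gal library, with the same limit on the Ins2 length.

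Insulin genes are shown by the first 90 bases of their coding sequences, since their reads could be told apart. Capitals in Ins1 mark the 12 positions at which it differs from Ins2.
Ins2: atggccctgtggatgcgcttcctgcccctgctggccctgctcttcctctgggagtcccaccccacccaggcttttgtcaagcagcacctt
Ins1: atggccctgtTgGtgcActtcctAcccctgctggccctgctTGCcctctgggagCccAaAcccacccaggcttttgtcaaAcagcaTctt
Over the whole coding sequence the genes were 90.9% identical.

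Other pancreatic genes, outside the 36, were counted from lists chosen with earlier results known. Of 33 further acinar genes, 18 passed the filter, 12 of them were at least 2-fold lower with GBP5 (5.56% over all features) and 2 were higher (19.2% over all features). Their median log2 ratio was -1.23. The trypsin-like gene 2210010C04Rik had 0 reads in the GBP5 library and 1949 reads (49.4 FPKM) in the β-Gal library, Tff2, a trefoil peptide, had 0 and 177 reads (16.5 FPKM), and Reg3b, an antibacterial lectin, 0 and 137 reads (12.6 FPKM). Several genes that the liver also expresses were not lower. The water channel Aqp8 was at 126 FPKM in the GBP5 library and 56.4 FPKM in the β-Gal library, the trypsin inhibitor Spink1 at 44.1 and 18.2 FPKM, and the nuclear receptor Nr5a2 at 29.4 and 27.1 FPKM. After that same division, Aqp8 and Spink1 no longer passed 2-fold and the lower count stayed at 12. Among transcription factors of this list, Ptf1a, Rbpjl and Bhlha15, named after their values were seen, were scarce in both libraries. Nr5a2 was not, and neither was Gata4, at 14.6 FPKM in the GBP5 library and 9.73 FPKM in the β-Gal library. Ptf1a had 0 reads in the GBP5 library and 1 read in the β-Gal library, Rbpjl 2 and 30 reads, and Bhlha15, which encodes MIST1, 17 and 27 reads.

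Of 33 further islet genes, 29 were under 1 FPKM in both libraries. Of the 4 that passed the filter, 1 was lower and 1 higher, beside 5.56% and 19.2% over all features, and nothing is read from counts this small. The lower gene was Pyy, a gut and islet peptide, at 0 and 10 reads in the GBP5 and the β-Gal library. Cpe, a carboxypeptidase of hormone processing, was higher, at 4.54 FPKM in the GBP5 library and 0.833 FPKM in the β-Gal library. Slc2a2, the glucose transporter of liver and beta cells, was at 83.1 FPKM in the GBP5 library and 131 FPKM in the β-Gal library. The islet regulators Pdx1, Nkx6-1 and Neurod1, named after their values were seen, had no reads in either library, and the hormone-processing protease gene Pcsk2 had 0 reads in the GBP5 library and 3 in the β-Gal library.

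**Figure D4:**
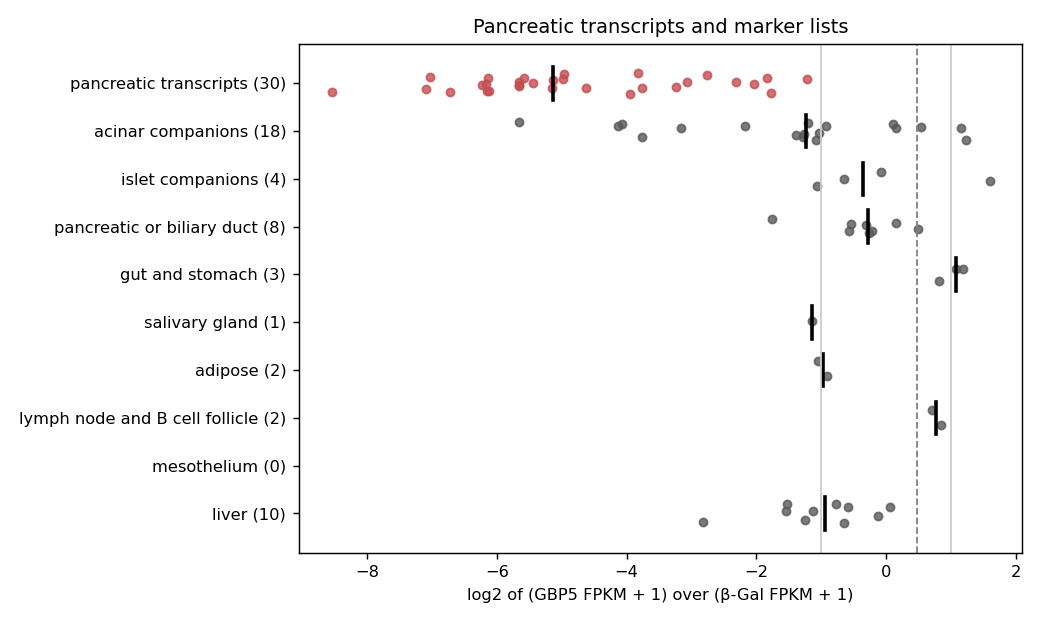
Log2 ratio of FPKM + 1, GBP5 library over β-Gal library, for genes with at least 1 FPKM in either library (points), by list, with the number of genes in brackets, a black bar at the median of each list, a dashed line at the median of all features and grey lines at 2-fold. The pancreatic genes reach from -8.54 to -1.22, and the listed liver genes from -2.83 to 0.06.

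Markers of neighbouring tissues were read in the same libraries. Duct genes, which pancreatic and bile ducts share, had 8 of 9 members past the filter, with 1 lower (5.56% over all features) and none higher, and summed to 67.3 FPKM in the GBP5 library and 82.9 FPKM in the β-Gal library. The lower member was Krt19, a duct keratin, with 12 and 86 reads, 6.70-fold lower with an interval of 3.65 to 13.5. Of 13 matched gut and stomach genes, 3 passed the filter, 2 were higher (0 after the same division; 19.2% over all features) and none was lower. The higher genes were Fabp2, a fatty acid-binding protein found in gut and liver, at 155 FPKM in the GBP5 library and 67.6 FPKM in the β-Gal library, and Vil1, a protein of microvilli, at 47 and 12 reads. The third, Atp4a, a subunit of the stomach proton pump, was at 2.73 and 1.13 FPKM. Of the other matched genes, the gut mucin Muc2 had 1 and 6 reads, Pgc 0 and 6, Cdx2 0 and 2, Alpi 0 and 1, and Lct 2 and 1. Tff1 was listed at 0 in the GBP5 library and at 0.455 FPKM in the β-Gal library. The remaining 4 genes (Muc5ac, Gkn1, Gkn2 and Sis) were at 0 in both libraries. Among 9 salivary gland genes Amy1 alone passed the filter, and 7 were at 0 in both libraries. The 5 adipose genes summed to 0.854 FPKM in the GBP5 library and 4.02 FPKM in the β-Gal library. Adipoq, the fat cell hormone adiponectin, had 0 and 18 reads. The 7 lymph node and follicle genes summed to 5.80 and 3.60 FPKM, and the 5 mesothelium genes to 0.831 and 1.61 FPKM, with no mesothelium gene past the filter. Of the mesothelium genes, Lrrn4 alone had a higher value with GBP5, at 38 and 6 reads, while Upk3b had 2 and 28 reads. The part of tissue other than liver in the pancreatic values was not tested.

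Promoters of the pancreatic genes were searched for letters that factors of acinar, islet or liver cells are known to bind, and for the TATA box, because the genes were low together. RefSeq promoters of GRCm38.p6, from 250 bases before to 50 bases after a gene's start, were at hand for 30 of the 36 genes. Both strands were read. CACCTG was found in 15 of the 30 (50%) against 20.2% of all 32851 promoters, TATAAA in 13 of 30 (43.3%) against 13.6%, and TTTCCC in 10 of 30 (33.3%) against 25.2%. An E-box CANNTG followed after 2 to 16 bases by TTTCCC on the same strand was in 5 of 30 (16.7%), namely Cel, Cela1, Cpa1, Ctrb1 and Prss1, against 1.78% of all promoters. Other letters searched were CATATG (0 of 30, 3.91% of all), TGTTTAC (0 of 30, 3.65%), TAATTA (1 of 30, 5.29%) and GTTAAT (4 of 30, 7.10%). Several of these motifs can overlap, paralogues share promoter sequence, and a match is a description of letters, not a binding site. Promoters with the paired letters are given for the 4 of these genes above 10 FPKM in the β-Gal library, 5′ to 3′ in the direction of the gene, with the E-box, its TTTCCC on either strand and any TATAAA in capitals.
Ctrb1 promoter, chr8:111690961-111691260, minus strand: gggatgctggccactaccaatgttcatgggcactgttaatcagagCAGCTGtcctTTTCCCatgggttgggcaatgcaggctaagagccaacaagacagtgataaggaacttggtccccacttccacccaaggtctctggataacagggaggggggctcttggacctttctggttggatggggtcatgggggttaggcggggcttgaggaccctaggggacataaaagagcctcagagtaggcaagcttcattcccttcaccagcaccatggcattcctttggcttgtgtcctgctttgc
Cela1 promoter, chr15:100687871-100688170, minus strand: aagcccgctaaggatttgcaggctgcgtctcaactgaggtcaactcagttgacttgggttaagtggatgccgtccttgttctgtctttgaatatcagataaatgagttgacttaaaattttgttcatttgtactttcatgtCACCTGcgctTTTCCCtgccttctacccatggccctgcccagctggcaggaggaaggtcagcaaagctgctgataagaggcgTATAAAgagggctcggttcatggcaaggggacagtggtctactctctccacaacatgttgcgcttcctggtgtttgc
Cpa1 promoter, chr6:30638968-30639267, plus strand: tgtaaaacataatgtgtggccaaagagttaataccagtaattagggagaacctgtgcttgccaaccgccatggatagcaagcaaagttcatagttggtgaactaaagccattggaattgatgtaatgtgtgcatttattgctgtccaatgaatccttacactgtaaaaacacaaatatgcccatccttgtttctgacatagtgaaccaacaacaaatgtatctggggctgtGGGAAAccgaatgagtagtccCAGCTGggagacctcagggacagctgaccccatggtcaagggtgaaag
Cel promoter, chr2:28563354-28563653, minus strand: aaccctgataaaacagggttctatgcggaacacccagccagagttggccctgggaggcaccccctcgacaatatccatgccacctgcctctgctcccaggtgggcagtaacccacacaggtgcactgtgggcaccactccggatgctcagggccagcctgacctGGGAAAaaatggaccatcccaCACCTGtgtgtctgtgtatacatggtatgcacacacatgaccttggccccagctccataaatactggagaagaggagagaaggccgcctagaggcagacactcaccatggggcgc
In Ctrb1 the pair starts 205 bases before the start of the gene and in Cela1 109 bases before it, in each case with 4 bases between the E-box and TTTCCC. In Cpa1 and Cel the pair lies on the other strand with 15 bases between them. Its first base as printed is 19 bases before the start in Cpa1 and 86 bases before it in Cel. The E-box of Cpa1 therefore lies past the start of the gene. The same spacing of 4 bases was found in Prss1, there on the other strand. This gene had 1 read in the β-Gal library. Only 45.1% of its 50-base windows were unique, so its low level is uncertain and nothing is read from the shared spacing.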

How the data were processed

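RNA sequencing values for 2 mouse liver libraries, 1 GBP5 and 1 β-Gal, were used as deposited. The authors deposited FPKM per gene, and TopHat2, HTSeq 0.6.1 and GRCm38 are named per the submitters' processing notes. The annotation release, the strand setting and the FPKM program are unknown (not given in the sources used here).

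Symbols and positions came from GENCODE M21 (GRCm38) for 46574 of 47442 features. FPKM times the mean isoform length, rounded to whole bases, came in steps of 1 read. Within 0.02 reads, 72.7% of values above 0 in the GBP5 library and 72.0% in the β-Gal library were whole, or 82.9% and 80.9% of values under 50 reads. Reads are given for the 26 of 36 genes that were whole in both libraries, for 3 of them (Cela1, Ctrl, Pnliprp2) with the single length that made both whole within 0.005 reads. Genes without whole reads are called listed at 0 and have no bound. Intervals are exact (Clopper-Pearson or Poisson) at 95%, and cover counting error only, since PCR copies are not independent molecules.

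The ratio was the log2 difference of FPKM + 1, GBP5 minus β-Gal, with a filter of 1 FPKM in either library and a call at 2-fold. The pseudocount understates the change of low genes. Computation used Python 3.11.15, pandas 2.3.3, scipy 1.17.1 and Biopython 1.88, and was tested on simulated reads. The 36 genes, the lists and the motifs were chosen with earlier results of these data known. Named genes were all 36, Gbp5, Alb, up to 4 genes of each list by level and up to 4 by ratio, and the 10 protein-coding genes outside the 36 with the lowest ratio. Some of the list genes are not reported here. Alternatives were other pseudocounts, filters and scalings.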

Additional observations from a re-analysis of the deposited data

How the results depend on the processing

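The 30 lower genes stayed 30 with a pseudocount of 0.1 FPKM, without a filter, after the median rescaling of the GBP5 library, with TPM and with equal sums without the 50 most abundant genes. They were 25 of 30 with a pseudocount of 5 FPKM, 25 of 25 with a filter of 5 FPKM, and 29 of 29 without Cela1, a choice made after the data were seen. Their median log2 ratio of -5.14 became -8.07 and -3.06 with pseudocounts of 0.1 and 5 FPKM, -4.79 without a filter, -5.57 with a filter of 5 FPKM and -5.53 with TPM. Over all features, 5.56% lower became 3.20% with a pseudocount of 5 FPKM, 3.35% without a filter and 9.75% after the median rescaling, which put the median of all features at 0.03 in place of 0.48. Acinar genes outside the 36 were lower in 12 cases, but in 5 with a pseudocount of 5 FPKM and in 5 with a filter of 5 FPKM. The islet count of 1 became 0 under both of these and 2 after rescaling. The share of pancreatic FPKM, 0.00203% (GBP5) and 0.228% (β-Gal), was 0.00266% and 0.347% outside the 50 most abundant genes, 0.00167% and 0.156% in reads, and 0.000182% and 0.213% without Cela1. Without Ctrb1, Try4 and Try5 it was 0.144% in the β-Gal library. The ratio of hormone to acinar gene sums, 0.0557, became 0.0370 in reads and 0.0910 without the 3 most abundant acinar genes. The chymotrypsin share stayed the largest in reads. Reads here, as for the share above, are FPKM times length for all 36 genes. They include the 10 genes without whole reads, among them Ctrb1, Ins2 and Ins1. The values in reads are therefore estimates and no independent check on the FPKM. No paired analysis was possible because each group has 1 library, and for the same reason no library could be left out. Levels of genes with fewer than 10 reads are set by counting error.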

Other observations

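Outside the 36 genes, the 10 protein-coding genes with the lowest log2 ratio were, except for the trypsin-like 2210010C04Rik, not pancreatic genes of the lists. Smoc2, a secreted matrix protein, was at 5.75 FPKM in the GBP5 library and 472 FPKM in the β-Gal library, 82.1-fold lower, and Cyp2c54, a cytochrome P450, was 82.1-fold lower. Sult2a8, a liver sulfotransferase, was at 6.24 and 313 FPKM, Ces3b, a carboxylesterase, at 2.61 and 120 FPKM, and Serpina1e, an alpha-1 antitrypsin copy, at 94.4 and 2388 FPKM. Hsd3b5, a steroid dehydrogenase of male mouse liver, was listed at 0 in the GBP5 library and at 21.01 FPKM in the β-Gal library. Inmt, Cyp2c50 and Igfbp2 were 28.3-fold, 26.9-fold and 26.0-fold lower. Of the 117 features at 0 in the GBP5 library and at 1 FPKM or more in the β-Gal library, 44 were immunoglobulin or T-cell receptor segments and 38 were protein-coding. Of these 38, 22 were among the 36 pancreatic genes and 8 were on the lists of further acinar or islet genes. Those genes were chosen with these values known, so nothing is read from the overlap.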
